A study of Mus musculus with 6 samples.

Results

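The 10 genes described here, Nanog, Pou5f1, Dppa2, Dppa3, Dppa4, Dppa5a, Utf1, Zfp42, Sall4 and Tdgf1, are core pluripotency genes, and they were chosen by symbol. Every probe that the array's annotation assigns to 1 of them was taken, which gave 19 of 45281 probes and 10 of 19057 genes. Dppa4 has 4 probes, Sall4 has 3, and Nanog, Pou5f1, Dppa2 and Dppa5a have 2 each. Dppa3, Utf1, Zfp42 and Tdgf1 have 1 probe each. Expression was measured on Illumina Mouse WG-6 v2.0 arrays in 3 samples of D3 cells and 3 samples of MIN6 cells, 1 array per sample. D3 is a mouse embryonic stem (ES) cell line, here at passage 21 by the labels, although the paper's methods give a later range. It was grown on gelatin with leukemia inhibitory factor and without feeder cells. MIN6 is an insulin-secreting mouse insulinoma line, here at passage 23. It arose in mice that carried a viral T antigen under the insulin promoter. The labels give no treatment for either group. Each group is a single established line, so cell type, line, culture medium and passage cannot be told apart.

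Pluripotency, the ability to form all tissues of the embryo, is held in ES cells by transcription factors that activate their own genes and those of the others. OCT4, the product of Pou5f1, binds DNA with SOX2, and NANOG shares many of their sites. The network is active in the inner cell mass and in germ cells and is shut down when cells differentiate, and adult pancreatic β-cells and their tumors are not known for it.

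Promoter sequences of 5 of the 10 genes (Nanog, Pou5f1, Utf1, Zfp42 and Tdgf1) were found in the RefSeq promoter table, build GRCm38.p6, and all 5 are shown, since each of these genes was higher in D3 than in MIN6 cells. Each is 300 bases, 250 before to 50 after the transcription start, written along the gene's own strand. Capitals mark exact matches, on either strand, to the Pou core ATGCAAA, which was added after the sequences were seen, or to a motif fixed earlier. Those motifs were the Pou octamer ATGCAAAT, a Sox site CATTGT, a Klf site GGGTGTG, the GC box GGGCGG, an Esrrb site AAGGTCA and the TATA box TATAAA. The windows are chr6:122707239-122707538 (plus strand) for Nanog, chr8:43306960-43307259 (minus strand) for Zfp42, chr17:35505782-35506081 (plus strand) for Pou5f1, chr7:139943606-139943905 (plus strand) for Utf1 and chr9:110946109-110946408 (minus strand) for Tdgf1. For Nanog and Pou5f1 the table holds 2 windows, and the one at the start of the gene is shown.
Nanog: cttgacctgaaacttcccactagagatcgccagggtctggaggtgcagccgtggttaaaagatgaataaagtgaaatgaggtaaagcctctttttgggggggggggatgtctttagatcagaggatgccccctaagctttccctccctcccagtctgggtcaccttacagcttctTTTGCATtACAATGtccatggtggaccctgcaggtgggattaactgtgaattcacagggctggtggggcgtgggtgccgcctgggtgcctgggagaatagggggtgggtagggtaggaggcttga
Zfp42: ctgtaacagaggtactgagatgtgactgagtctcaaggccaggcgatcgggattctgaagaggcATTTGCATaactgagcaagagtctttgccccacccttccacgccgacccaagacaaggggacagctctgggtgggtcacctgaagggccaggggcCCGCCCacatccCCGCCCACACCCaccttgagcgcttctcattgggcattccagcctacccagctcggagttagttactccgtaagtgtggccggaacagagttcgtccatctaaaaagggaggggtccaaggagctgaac
Pou5f1: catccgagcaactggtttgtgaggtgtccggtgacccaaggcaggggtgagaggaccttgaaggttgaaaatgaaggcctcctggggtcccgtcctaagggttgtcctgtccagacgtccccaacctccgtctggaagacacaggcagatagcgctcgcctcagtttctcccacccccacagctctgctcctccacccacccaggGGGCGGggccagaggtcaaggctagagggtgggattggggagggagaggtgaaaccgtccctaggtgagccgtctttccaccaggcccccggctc
Utf1: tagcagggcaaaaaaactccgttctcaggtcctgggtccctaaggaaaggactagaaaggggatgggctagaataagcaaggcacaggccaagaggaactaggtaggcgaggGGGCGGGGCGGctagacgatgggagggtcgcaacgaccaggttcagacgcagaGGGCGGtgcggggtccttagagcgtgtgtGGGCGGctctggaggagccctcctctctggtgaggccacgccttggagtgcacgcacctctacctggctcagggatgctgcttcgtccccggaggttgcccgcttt
Tdgf1: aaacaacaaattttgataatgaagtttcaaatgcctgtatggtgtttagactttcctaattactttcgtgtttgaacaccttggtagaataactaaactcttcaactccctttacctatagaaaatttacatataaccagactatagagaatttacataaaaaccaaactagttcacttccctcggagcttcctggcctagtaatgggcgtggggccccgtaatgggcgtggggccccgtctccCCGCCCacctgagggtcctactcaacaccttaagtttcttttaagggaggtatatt
In the Nanog window a Pou core at position -75 lies 1 base from a Sox site at -67, counted from the transcription start. The Pou core was found in 2 of the 5 promoters and in 4.63% of all 32851 promoters of this length. The full octamer, which contains it, was found only in Zfp42 among the 5, at -186, and in 1.74% of all promoters. A Sox site was found in 1 of the 5 and in 12.6% of all promoters. GC boxes were found in 4 of the 5, that is in Pou5f1, Utf1, Zfp42 and Tdgf1, and in 35.7% of all promoters. Utf1 held 4 of them, of which the pair at -138 and -133 shares a base. The Klf site of Zfp42 shares a base with a GC box, and this motif was found in 7.95% of all promoters. Neither the Esrrb site (4.72% of all promoters) nor the TATA box (13.6%) was found in the 5 windows. These matches describe letters in the windows, and binding was not measured.

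Signals were quantile-normalized and are given on the log2 scale. Between 34.4 and 35.9% of all probes were above background on each array, at a detection p under 0.01. Arrays of the same cell line correlated at r = 0.993 to 0.994 across probes, and arrays of different cell lines at r = 0.835 to 0.838. These values are across probes, which are not independent replicates. Of the markers fixed for the labelled cell types, 5 of 5 ES cell genes (3 of them among the 10 genes) were above background on all D3 arrays and on no MIN6 array. All 7 β-cell markers were above background on no D3 array and on all MIN6 arrays. Two-sided limma tests were run over all probes, and a call needed an adjusted p under 0.05 and at least a 1.5-fold difference. The paper calls the samples independent. The labels name no separate cultures, so p-values cover no more than the spread between these samples, which may be technical, and 3 arrays per cell line limit the precision of every value.

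All 10 genes were higher in D3 than in MIN6 cells, and so were all 19 of their probes. Over the whole array 17.5% of genes and 13.4% of probes were called higher in D3, and among genes above background on all 3 D3 arrays the share was 37.5%. The 3 D3 values lay above the 3 MIN6 values for all 19 probes, as they did for 24% of all probes. Of the 10 genes, 9 were above background on all D3 arrays and on no MIN6 array, a pattern that 5.1% of all genes showed. Where no MIN6 array was above background the fold is a lower bound, set against the lowest signal that still counted as above background on each of them. A fold or bound of at least 10 was reached by 9 of the 10 genes, against 0.876% of all genes. Dppa2 passed narrowly, with a bound of at least 10.7-fold, and in the authors' processed values its bound was only at least 7.41-fold. The median fitted log2 difference of the 10 genes was 6.06, or 5.81 with bounds in place of fitted values, against 0.01 over all genes and 0.25 over genes above background on all D3 arrays. Fold sizes depend on the processing, and background correction with normexp made all 10 more than 1.5 times larger.

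**Figure D1:**
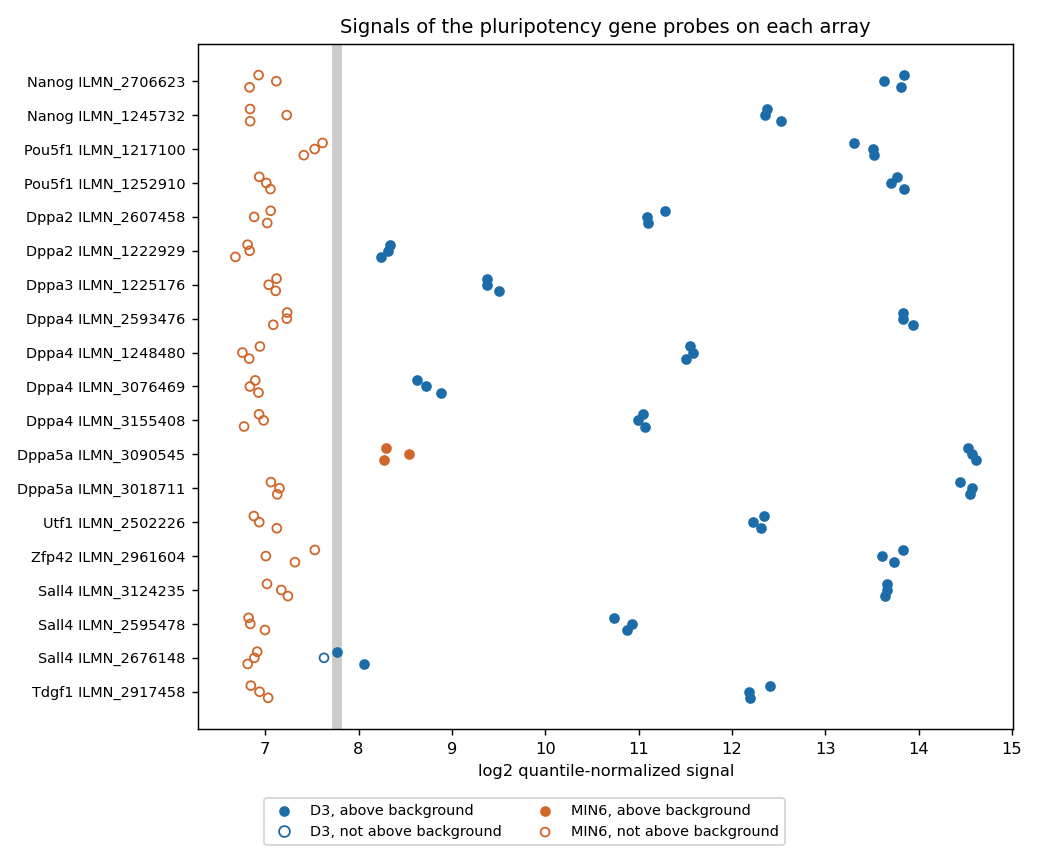
Log2 quantile-normalized signal (x axis) of each of the 19 probes (rows) on the 3 D3 arrays (blue) and the 3 MIN6 arrays (orange), with filled points above background at a detection p under 0.01 and the gray band spanning the lowest log2 signals above background on the 6 arrays (7.72 to 7.81). In every row the D3 points lie to the right of the MIN6 points, and only the Dppa5a probe ILMN_3090545 has filled MIN6 points.

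Nanog encodes the homeodomain factor that holds ES cells in self-renewal. Its probe ILMN_2706623 gave log2 signals of 13.84, 13.62 and 13.81 on the D3 arrays, against 6.93, 7.12 and 6.83 on the MIN6 arrays. The MIN6 values were all at background and far from the D3 values. Nanog was at least 64.6-fold higher in D3 cells (fitted log2 difference 6.80 ± 0.10 SE, adjusted p = 3.72e-21). Pou5f1 encodes OCT4, the POU-domain factor without which the inner cell mass is not pluripotent. On the probe ILMN_1217100, which had the highest mean signal for this gene, it gave 13.31, 13.51 and 13.52 in D3 cells and 7.61, 7.53 and 7.41 in MIN6 cells. The D3 arrays lay close together and apart from all MIN6 arrays, with a bound of at least 52.1-fold (5.93 ± 0.10, adjusted p = 1.32e-20). The second Pou5f1 probe, ILMN_1252910, gave 13.77, 13.71 and 13.85 in D3 cells, against 6.94, 7.01 and 7.06 in MIN6 cells, and a bound of at least 65.3-fold.

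Sall4, a zinc finger factor that binds the Pou5f1 promoter region and partners with NANOG, gave 13.66, 13.66 and 13.64 in D3 cells on the probe ILMN_3124235, against 7.02, 7.17 and 7.24 in MIN6 cells. This was the smallest D3 spread of the 19 probes (SD 0.0097, n = 3), and Sall4 was at least 60.1-fold higher in D3 cells (adjusted p = 2.56e-21). Zfp42 encodes REX1, a zinc finger protein related to YY1 and a standard marker of undifferentiated ES cells. It gave 13.83, 13.60 and 13.74 in D3 cells, against 7.53, 7.01 and 7.32 in MIN6 cells. The groups did not overlap, and the MIN6 spread was the largest of the 19 probes (SD 0.264, n = 3). Zfp42 was at least 63.1-fold higher in D3 cells (6.44 ± 0.12, adjusted p = 4.03e-20). Utf1, a chromatin-bound protein of ES cells whose enhancer is bound by OCT4 and SOX2, gave 12.35, 12.22 and 12.31 in D3 cells, against 6.88, 6.94 and 7.12 in MIN6 cells. It was at least 23.4-fold higher in D3 cells (adjusted p = 5.18e-20), with all MIN6 arrays at background.

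Dppa2 and Dppa4 encode SAP-domain proteins that bind DNA as a pair and keep developmental promoters open to activation. Dppa4 gave 13.83, 13.83 and 13.94 in D3 cells on the probe ILMN_2593476, against 7.24, 7.23 and 7.09 in MIN6 cells. It was at least 69.8-fold higher in D3 cells (6.68 ± 0.10, adjusted p = 1.76e-21), and the D3 arrays stood far above every MIN6 array. Dppa2 gave 11.29, 11.09 and 11.10 in D3 cells on the probe ILMN_2607458, against 7.06, 6.88 and 7.02 in MIN6 cells. Its groups were likewise apart, with a bound of at least 10.7-fold (4.17 ± 0.10, adjusted p = 1.80e-18). Dppa3, also called Stella, protects the maternal genome from loss of DNA methylation after fertilization. Its only probe gave 9.37, 9.38 and 9.50 in D3 cells, against 7.12, 7.04 and 7.11 in MIN6 cells. Dppa3 was at least 3.19-fold higher in D3 cells (2.33 ± 0.10, adjusted p = 1.28e-14), and it was the 1 member whose bound was under 10-fold. The 3 D3 values still lay well above all 3 MIN6 values.

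Dppa5a encodes an RNA-binding protein with a KH domain that is abundant in ES cells and oocytes. On the probe ILMN_3090545 it gave 14.53, 14.57 and 14.62 in D3 cells, against 8.30, 8.54 and 8.27 in MIN6 cells. It was the only member above background in both cell lines, so its fold is measured and not a bound: it was 73.5-fold higher in D3 cells (6.20 ± 0.10, adjusted p = 7.03e-21). Among the 12261 probes above background on all 6 arrays, this probe had the largest log2 difference in favor of D3 cells. Tdgf1 encodes Cripto, the membrane-anchored co-receptor for Nodal. It gave 12.41, 12.19 and 12.20 in D3 cells, against 6.85, 6.94 and 7.03 in MIN6 cells. No MIN6 array was above background, and Tdgf1 was at least 22.9-fold higher in D3 cells (5.32 ± 0.10, adjusted p = 5.99e-20). Among the D3 arrays the SD of the 19 probes ranged over 0.0097 to 0.219, with a median of 0.073. The median over all probes above background on all D3 arrays was 0.10.

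**Figure D2:**
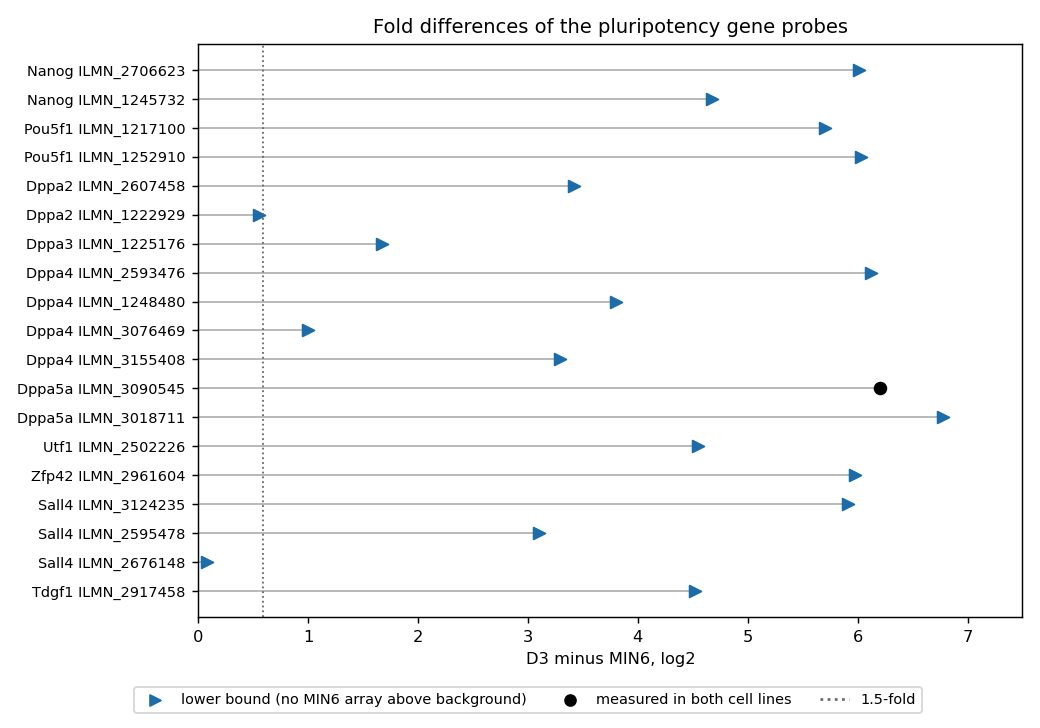
Log2 difference, D3 minus MIN6 (x axis), of each of the 19 probes (rows), as a lower bound where no MIN6 array was above background (triangles) and as the measured difference otherwise (circle), with the dotted line at 1.5-fold. Of the 19 values, 13 are at least 10-fold, and the bounds of the Dppa2 probe ILMN_1222929 (1.47-fold) and the Sall4 probe ILMN_2676148 (1.05-fold) lie left of the line.

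All probes of a gene had the same direction in each of the 6 genes with more than 1 probe. Fitted differences of probe pairs were compared on the same arrays where both probes were above background on all D3 arrays. Of 11 such pairs in these genes, 10 differed at an adjusted p under 0.05 and by at least 1.5 times, against 24.6% of 5957 pairs over all genes. In 10 of the 11 pairs neither probe was above background in MIN6 cells, so for those pairs the count does not show that the folds were unequal, and bounds of unlike size can belong to 1 and the same fold. The pair with a measured fold, that of Dppa5a, is described with the MIN6 signals. The 4 Dppa4 probes gave bounds of at least 69.8-, 14.0-, 9.79- and 2.00-fold. The probe with the last of these, ILMN_3076469, was still above background on all D3 arrays, at 8.62, 8.72 and 8.89, against 6.89, 6.84 and 6.93 in MIN6 cells.

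The Dppa2 probe ILMN_1222929 gave 8.33, 8.32 and 8.24 in D3 cells, against 6.81, 6.83 and 6.68 in MIN6 cells. It was called at a fitted log2 difference of 1.52 (adjusted p = 1.67e-11), although its bound was only at least 1.47-fold. Of the Sall4 probes, ILMN_3124235 is annotated to 1 RefSeq transcript of Sall4, and the other 2 probes to another. Of those, ILMN_2595478 averaged 10.85 ± 0.098 in D3 cells and 6.89 ± 0.097 in MIN6 cells (SD, n = 3 each), with a bound of at least 8.59-fold. ILMN_2676148 gave 7.77, 7.63 and 8.06 in D3 cells, against 6.91, 6.88 and 6.81 in MIN6 cells. It was the 1 probe of the 19 that was not above background on every D3 array, passing on 2 of 3, and the groups did not overlap. Its fitted log2 difference of 0.95 (adjusted p = 2.33e-07) stands against a bound of at least 1.05-fold, and it was not called in the authors' processed values.

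The Nanog probe ILMN_1245732 averaged 12.42 ± 0.091 in D3 cells and 6.97 ± 0.226 in MIN6 cells (SD, n = 3 each), with a bound of at least 25.5-fold. RefSeq lists pseudogenes named after some of the 10 genes, among them Dppa5b and Dppa5c, and Nanog-ps1 and Nanog-ps2. Probe sequences were not used here, and whether any probe also binds these copies was not tested.

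In MIN6 cells, 18 of the 19 probes were above background on no array. Of all probes, 35.0 to 35.9% were above background on each MIN6 array, so most probes of the array were not. Of the 57 values of these probes on the MIN6 arrays, 3 had a detection p under 0.01, and all 3 were of the Dppa5a probe ILMN_3090545. On this probe the non-normalized signals were 27021.4, 26538.3 and 23397.5 on the D3 arrays, against 394.8, 354.6 and 294.0 on the MIN6 arrays. The lowest signals above background were 268, 197.2 and 193.4 on those MIN6 arrays, so Dppa5a lay above background and far below its signals in D3 cells. The other Dppa5a probe, ILMN_3018711, gave 156.9, 131.7 and 122.9 on the MIN6 arrays, with detection p-values of 0.460, 0.306 and 0.323, none above background. On the log2 scale it gave 14.45, 14.57 and 14.55 in D3 cells, against 7.06, 7.15 and 7.13 in MIN6 cells. Its bound of at least 109.8-fold exceeds the 73.5-fold of ILMN_3090545, and the fitted difference of ILMN_3090545 minus that of ILMN_3018711 was -1.21 on the log2 scale (adjusted p = 2.27e-07). The residual Dppa5a signal in MIN6 cells was therefore seen with 1 of its 2 probes. Whether the MIN6 signal of that 1 probe comes from Dppa5a transcript was not tested. If it does, few cells with a transcript and a low level in every cell cannot be told apart in RNA from whole cultures.

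At the looser detection p of 0.05, 5 of the 57 MIN6 values passed, and 2 of 54 without the Dppa5a probe. On these arrays between 40.1 and 40.9% of all probes passed it. Both values belong to the Pou5f1 probe ILMN_1217100, whose detection p on the MIN6 arrays was 0.0363, 0.0459 and 0.093. The other Pou5f1 probe had 0.696, 0.53 and 0.44, so with it Pou5f1 was far from passing in MIN6 cells. Zfp42 came next, with 0.0513, 0.535 and 0.15, and only the first of these comes near the threshold. For the remaining 16 probes no MIN6 value was under 0.1.

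**Figure D3:**
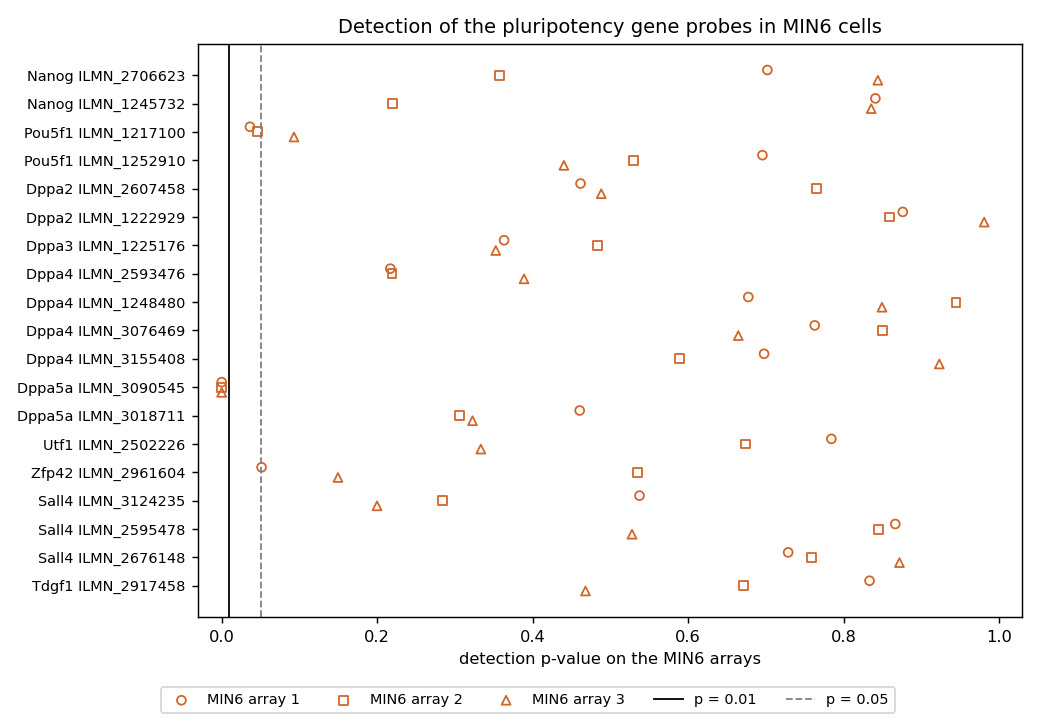
Detection p-value (x axis) of each of the 19 probes (rows) on the 3 MIN6 arrays (circle, square and triangle), with the solid line at 0.01 and the dashed line at 0.05. Only the Dppa5a probe ILMN_3090545 lies left of the solid line, and only the Pou5f1 probe ILMN_1217100 adds 2 points between the lines.

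The 4 lists of related genes were counted against the same background, in which 17.5% of all genes were called higher in D3 cells and 17.1% lower, or 37.5% higher among genes above background on all D3 arrays. Partners and regulators of these factors were mostly higher in D3 cells. Of 16 measured genes of this list, 14 were called higher, 0 lower and 2 (Nr0b1 and Stat3) were not called, with a median fitted log2 difference of 3.98. Esrrb, an orphan nuclear receptor that NANOG activates, was at least 83.4-fold higher in D3 cells (adjusted p = 8.43e-22). Klf2, a Krüppel-like factor of the naive state, was at least 33.6-fold higher, Nr5a2, a nuclear receptor that can activate Pou5f1, at least 13.9-fold, and Tcf7l1, a repressor that the Wnt pathway relieves, at least 12.6-fold. Stat3, which carries the signal of leukemia inhibitory factor, had a log2 difference of -0.07. Of 9 measured targets of OCT4 and NANOG, 8 were called higher in D3 cells, 0 lower and 1 (Trap1a) was not called, with a median of 4.52. Dnmt3l, a cofactor of the de novo DNA methyltransferases, was at least 60.1-fold higher, Fbxo15, an F-box protein, at least 44.2-fold, and Tcl1, a co-activator of Akt, at least 25.3-fold. L1td1, which encodes an RNA-binding protein, was above background on 2 MIN6 arrays and was 30.6-fold higher in D3 cells (adjusted p = 2.05e-19).

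In the Nodal pathway, to which Tdgf1 belongs, 9 of 12 measured genes were called higher in D3 cells, 0 lower and 3 (Acvr2a, Cfc1 and Smad2) were not called, with a median fitted log2 difference of 1.86. The inhibitors Lefty1 (at least 15.9-fold) and Lefty2 (at least 13.5-fold) and the ligands Gdf3 (at least 15.1-fold) and Nodal (at least 13.4-fold) were above background on no MIN6 array. Gdf3 is also in the list of targets. The closest relative of Tdgf1, the co-receptor gene Cfc1, was above background on no array. Among 18 measured relatives of the 10 genes, 7 were called higher, 2 lower and 9 were not called, with a median of 0.30 (17.5% of all genes were higher and 17.1% lower). Ooep, a KH-domain relative of Dppa5a that acts in the oocyte, was at least 61.3-fold higher in D3 cells, and Khdc3, of the same oocyte complex, at least 16.2-fold. Sall1 was measured on all arrays and was 6.05-fold higher (adjusted p = 5.99e-15), and the POU factor gene Pou3f1 was at least 3.69-fold higher. Sall2 went the other way, at 8.22, 8.11 and 8.14 in D3 cells, against 9.15, 9.09 and 9.12 in MIN6 cells, with no overlap. It was 1.95-fold lower in D3 cells (adjusted p = 1.75e-08). Pou6f1 was also called lower, with a bound of at least 1.02-fold, and was not called in the authors' processed values.

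**Figure D4:**
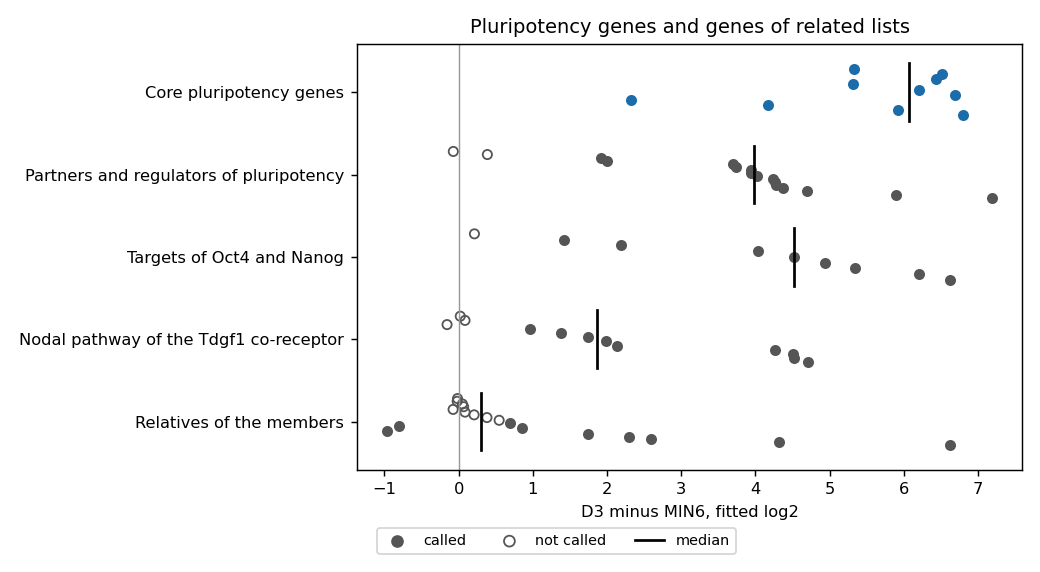
Fitted log2 difference, D3 minus MIN6 (x axis), of the 10 pluripotency genes (blue) and of the genes of 4 related lists (gray, rows), with filled points called, open points not called and a bar at each list's median. The medians are 6.06 for the 10 genes, 3.98 for partners and regulators, 4.52 for targets, 1.86 for the Nodal pathway and 0.30 for relatives.

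Genes next to the 10 on the chromosomes were compared in RefSeq gene order, with the 5 nearest measured genes on each side. This set was chosen after values were seen. Of 80 such genes that are not among the 10, 14 (17.5%) were called higher in D3 cells and 19 lower, against 17.5 and 17.1% of all genes. Their median fitted log2 difference was 0.02. Of the 80, 6 were at least 10-fold higher in D3 cells, a larger share than the 0.876% of all genes. Gdf3 and Ooep, 2 of those 6, are also in the lists above. Among the measured genes of chromosome 6, Nanog and Dppa3 lie beside each other, with Gdf3 (at least 15.1-fold higher in D3 cells) on the Dppa3 side and Slc2a3, a glucose transporter gene (at least 84.0-fold), on the Nanog side. Beyond them Phc1, a Polycomb gene, was 4.33-fold higher, Apobec1 was not called (log2 difference -0.38) and Foxj2 was 2.20-fold lower. On chromosome 9, Ooep lies next to Dppa5a, and Gsta4, 5 measured genes away on the other side, was at least 22.5-fold higher. Triml1, next to Zfp42 on chromosome 8, was at least 19.6-fold higher, and Kndc1, next to Utf1 on chromosome 7, at least 10.6-fold.

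Around the other members no measured gene outside the 10 reached 10-fold higher. Counts of called genes around a member stand against 17.5% of all genes called higher and 17.1% called lower. Dppa2 and Dppa4 lie beside each other on chromosome 16, and none of the 9 measured genes around Dppa2 other than Dppa4 was called higher. Nectin3, on the Dppa4 side, was 1.96-fold lower and Tagln3, farther out, 6.15-fold lower in D3 cells, and Morc1, on the Dppa2 side, was above background on no array. Around Pou5f1 on chromosome 17, 6 of 10 genes were called lower in D3 cells and 1 (Cdsn, at least 2.34-fold) higher. The 6 include H2-Q2, H2-Q5, H2-Q6 and H2-Q7, which are related histocompatibility genes. Tcf19, the next measured gene on one side, was 10.2-fold lower in D3 cells, and the histocompatibility gene H2-Q5 at least 7.04-fold lower. Of the 10 genes around Sall4 on chromosome 2, 2 were called higher and 2 lower. Zfp64, next to Sall4, was 2.52-fold higher, and Bcas1, farther out, was at least 3.07-fold higher. Atp9a, next to Sall4 on the other side, was 1.83-fold lower. Dpm1, farther out and above background on 1 D3 array, was 1.79-fold lower. Of the 10 genes around Tdgf1, 2 were called higher and 3 lower (17.5 and 17.1% of all genes).

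**Figure D5:**
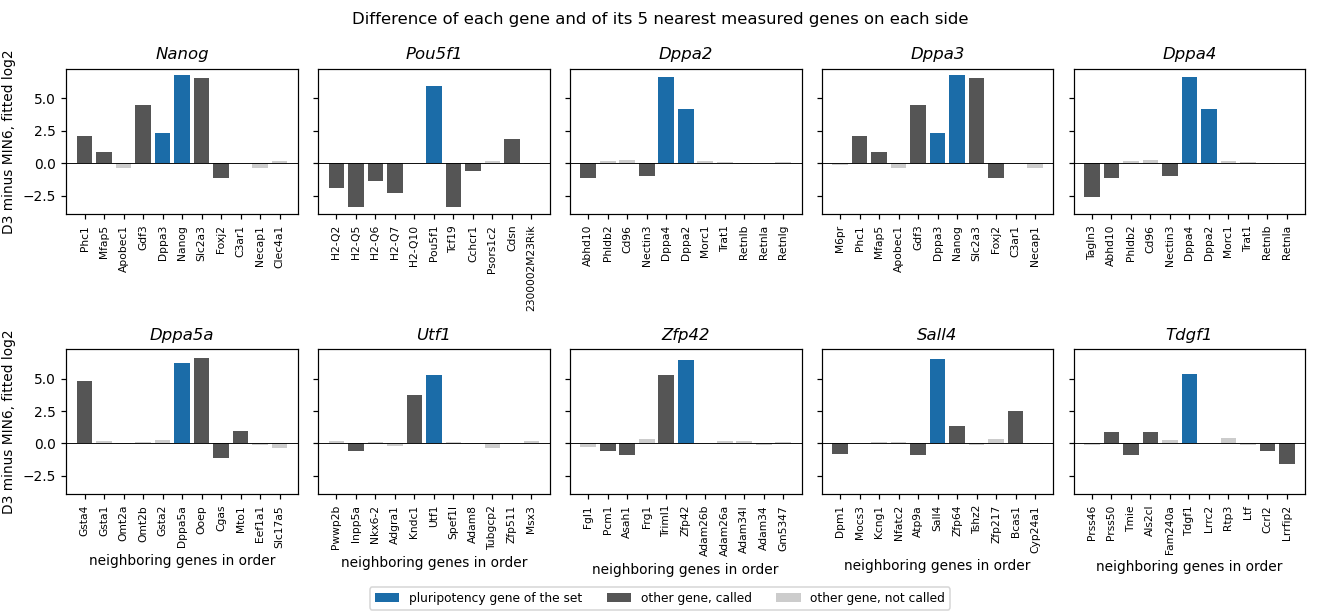
Fitted log2 difference, D3 minus MIN6 (y axis), of each of the 10 genes (blue, titles) and of its 5 nearest measured genes on either side in chromosome order (x axis, dark gray called, light gray not called). Genes outside the 10 that were at least 10-fold higher in D3 cells stand in the panels of Nanog, Dppa3, Dppa5a, Utf1 and Zfp42. The genes called lower include 6 around Pou5f1 and Tagln3 in the Dppa4 panel.

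Some markers of other cells differed between the cell lines. Their counts stand against 17.5% of all genes called higher in D3 cells and 17.1% called lower. Among genes above background on all D3 arrays, 37.5% were called higher. Of 10 fibroblast and feeder markers, 4 were called higher in D3 cells (with bounds of 17.0-fold for Fn1, 5.94-fold for Vim, 5.07-fold for Acta2 and 2.22-fold for Thy1), and 6, among them the collagen genes Col1a1, Col1a2, Col3a1 and Col6a1, were above background on no array. The normalized linear signals of the list summed to 7019 to 7565 on the D3 arrays and 1243 to 1336 on the MIN6 arrays. Of 4 germ cell markers 3 were higher, with bounds of 15.8-fold for Kit, 2.64-fold for Dazl and 1.68-fold for Ddx4, and sums of 4327 to 4601 on the D3 arrays and 492 to 562 on the MIN6 arrays. Of 5 primitive endoderm markers 2 were higher, with bounds of 2.65-fold for Dab2 and 1.31-fold for Gata6, and sums of 1318 to 1341 on the D3 arrays and 701 to 728 on the MIN6 arrays. Of 4 trophoblast markers 1 was higher in D3 cells (Tfap2c, at least 23.7-fold) and 2 were lower (Krt7 28.7-fold and Cdx2 at least 2.34-fold). Krt7 was above background on only 1 D3 array, so its fold rests partly on D3 values at background. The sums of this list were 5511 to 5574 on the D3 arrays and 5440 to 7330 on the MIN6 arrays. Of 5 ectoderm markers 2 were higher (Otx2 at least 5.40-fold and Nes at least 1.31-fold) and 1 lower (Pax6, at least 2.46-fold), with sums of 1843 to 1938 on the D3 arrays and 986 to 1262 on the MIN6 arrays. Of 4 mesoderm markers 1 was called higher (Eomes, above background on 1 D3 array), with sums of 583 to 727 on the D3 arrays and 479 to 499 on the MIN6 arrays. No background was subtracted, so genes at background also add to all these sums. No fibroblast, germ cell, primitive endoderm or mesoderm marker was above background on any MIN6 array, so the MIN6 sums of these lists are background. Whether the cultures held any such cells was not tested, nor was any part of them in the differences of the 10 genes. Of the 2 reference genes, Actb was not called (log2 difference 0.39, adjusted p = 0.00147) and Tbp was 2.02-fold higher in D3 cells (adjusted p = 2.05e-08).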

How the data were processed

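Total RNA of 3 D3 and 3 MIN6 samples was hybridized to 1 array each. The authors deposited signal intensities on a linear scale for 45281 probes, without normalization or background subtraction. The detection columns, deposited under a p-value heading, hold a fraction equal to 1 minus p, from which p was taken. The authors also deposited values on a log2-like scale, quantile-normalized with lumi (median 7.86 on each array), with a transformation not given in the sources used here. They correlated at r = 0.994 with the log2 signals computed here and served only as an alternative.

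Intensities were quantile-normalized, taken to log2 and fitted in R 4.3.3 with lmFit and eBayes of limma 3.58.1 (and statmod 1.5.0) for D3 minus MIN6 over all probes, with Benjamini-Hochberg adjustment over all probes. Calls required both an adjusted p under 0.05 and a difference of 1.5-fold or more. For each gene, the probe brightest on average over the 6 arrays was used. A bound is the mean over D3 arrays minus the mean over MIN6 arrays of the higher of the probe's own value and the lowest signal above background (detection p under 0.01). Probe pairs were fitted with limma on within-array differences. Of all probes, 34885 have 1 gene symbol, 18 several and 10378 none.

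The members, gene lists and tests were chosen with earlier results of these data known, and the Pou core motif and the neighbor comparison after values or sequences were seen. Named genes are all members and their probes, from each related list up to 4 called genes with the largest difference and any called the opposite way, and Actb and Tbp. Neighbors, markers and list genes that were not called were named after their values were seen. Of the listed genes, Spp1, Tdh, Smad4, Pou2f1, Pou3f2, Pou4f2 and T were among those not analysed here. Alternatives were other normalizations, normexp (offset 16), a filter on dim probes, the authors' values, a replicate block, a trended prior, the methods' t-test, each array left out, other fold and detection thresholds and the mean of all probes. The steps were tested on simulated data. The files give no slide, so no slide block was run. Figures used Python 3.11.15, numpy 2.4.6 and matplotlib 3.10.9.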

Additional observations from a re-analysis of the deposited data

How the results depend on the processing

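All 180 log2 differences of the 10 genes, over 18 alternative settings, kept their direction and their side of the threshold, and 10 genes were called in each. The filter, the replicate block, the trended prior, the t-tests and the other fold thresholds leave these differences unchanged by construction. A kept direction in those settings is no separate check, and with the other fold thresholds the adjusted p is unchanged as well. With a replicate block the count was 10 and the highest adjusted p 1.58e-14. Deviations of same-numbered arrays correlated at 0.01, -0.0028 and -0.023 across all probes, which shows no pairing by replicate number. Most probes were at background, so these values cannot exclude such a pairing. Of the 19 probes, 18 were called in the authors' processed values and at 2-fold. A filter on dim probes, which needed at least 3 arrays above background, removed the Sall4 probe ILMN_2676148 untested, and the other 18 were called. Apart from the Dppa5a probe ILMN_3090545, those passed the filter only through their D3 arrays, so it is no separate check. Leaving out 1 array in turn gave 10 to 11 called probe pairs. Fold sizes moved more: with normexp the bounds were at least 147-fold for Nanog, 118.3 for Pou5f1, 159 for Dppa4, 144 for Zfp42 and 137 for Sall4, and Dppa5a was 116-fold higher in D3 cells. Fitted folds of 8 genes, on the linear scale, were over 1.5 times smaller in the authors' processed values. In those values the bound of Dppa2 fell to at least 7.41-fold, so Dppa2 no longer reached 10-fold. With the mean of all probes, Dppa2 (2.85), Dppa4 (4.35), Sall4 (3.81) and Nanog (6.12) were smaller on the log2 scale and Dppa5a (6.80) larger. Genes of the 10 above background in MIN6 cells numbered 1 at a detection p under 0.01, 2 at 0.05 (with Pou5f1) and, added after seeing the data, 3 at 0.1 (with Zfp42). Of the 2 relatives called lower in D3 cells, 1 was left with a filter on dim probes, 1 in the authors' processed values and 0 at 2-fold. Of the neighbors, 14 were called higher with 5 on each side and 7 of 32 with 2 on each side, a smaller set. Signals at background in MIN6 cells leave 9 of the 10 folds as lower bounds, and 3 arrays per cell line limit the rest.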
